A study of Mus musculus with 6 samples.

Results

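The lysyl oxidases and collagen hydroxylases are enzymes that modify lysine and proline in collagen and elastin. The 10 genes described here were taken by name: the 5 lysyl oxidases Lox, Loxl1, Loxl2, Loxl3 and Loxl4, the 3 catalytic alpha subunits of collagen prolyl 4-hydroxylase P4ha1, P4ha2 and P4ha3, and the lysyl hydroxylases Plod1 and Plod2. All 10 had a value among the 11754 genes of the deposited table, and all 10 passed the filter for testing. Plod3, the remaining lysyl hydroxylase, was placed with the related genes described after them.

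Prolyl and lysyl hydroxylases act inside the endoplasmic reticulum on newly made collagen chains and need iron, oxygen, 2-oxoglutarate and ascorbate. Hydroxyproline keeps the collagen triple helix stable, and hydroxylysine carries sugars and shapes the later crosslinks. Lysyl oxidases are copper enzymes that work outside the cell, where they oxidise lysine and hydroxylysine side chains so that collagen and elastin molecules become crosslinked. Several of these genes are known targets of the hypoxia-inducible factor HIF-1, and they are widely studied in fibrosis and in the matrix of vessel walls.

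Polyadenylated RNA was sequenced from 2H11, a mouse cell line labelled endothelial, with axillary lymph node and vascular epithelium given as its source and C3H/HeJ as its strain. One group was starved and kept with BMP4, a secreted bone morphogenetic protein, for 48 h. The other was starved and left untreated, with the same culture time of 48 h. Each group had 3 samples, and no label gives the BMP4 dose.

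Values were FPKM, fragments per kilobase of transcript relative to library size, so levels can be set side by side between genes, but only roughly. Among the 10 enzymes, summed transcript FPKM over gene FPKM ran from 1.0 for Loxl1 to 2.12 for Plod1. The sum of FPKM over the listed genes was 252329 to 264273 in the BMP4 samples and 256997 to 273562 in the untreated samples. These sums do not give read numbers, so the depth is unknown and the replicates alone show the precision. No label says that the replicates were separate cultures. The p-values therefore describe the spread among these samples, which may be technical. Of 12 endothelial markers, 10 had no value among the 11754 listed genes, including Tek, Kdr, Pecam1 and Cdh5. The other two were the co-receptor gene Eng, at 15.2 ± 0.390 FPKM with BMP4 and 15.2 ± 1.21 FPKM untreated, and Egfl7, at 2.04 ± 0.183 FPKM with BMP4 and 2.55 ± 0.343 FPKM untreated (SD, n = 3 each). The label endothelial therefore rests on few measured markers. All 10 fibroblast markers had values, with a summed level of 458 to 481 FPKM in BMP4 samples and 905 to 992 FPKM in untreated samples. With BMP4, 4 of these 10 were higher and 4 lower past the threshold, beside 13.6% and 14.3% of all tested genes. Those lower were Lum, Fbln2, Dcn (214 ± 11.4 FPKM with BMP4 and 467 ± 22.1 FPKM untreated) and Dpt (41.1 ± 3.37 FPKM with BMP4 and 245 ± 17.0 FPKM untreated). Those higher were Pdgfra, Pdgfrb, Thy1 and Mfap5, so the sum does not describe each marker. Of 8 leukocyte markers 3 had values, summing to 12.1 to 13.7 FPKM with BMP4 and 10.3 to 15.6 FPKM untreated, and 1 of 7 epithelial markers had a value, 0.742 to 1.07 FPKM with BMP4 and 0 to 0.339 FPKM untreated. The part of these marker levels in the results below was not tested.

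The lysyl oxidases share a catalytic domain whose copper ion is held by histidines. The coding bases of that stretch are shown for 4 of the genes, with the 4 histidine codons in capitals, because the same site is found in paralogs that differed in their response to BMP4. They are 33 bases each, read 5′ to 3′ on the coding strand from GENCODE M21 transcripts (build GRCm38), joined where an intron interrupts them. The genomic spans are chr9:58293720-58294381 (minus strand) for Loxl1, chr14:69682316-69689037 (plus) for Loxl2, chr6:83049995-83050125 (plus) for Loxl3 and chr19:42598807-42599899 (minus) for Loxl4.
Loxl1: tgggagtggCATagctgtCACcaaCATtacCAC
Loxl2: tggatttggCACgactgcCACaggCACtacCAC
Loxl3: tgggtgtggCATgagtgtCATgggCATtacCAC
Loxl4: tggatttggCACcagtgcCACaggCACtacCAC
Loxl2 and Loxl4 differed at 2 of the 33 bases, the fewest among the 6 pairs. Loxl1 and Loxl4 differed at 12, Loxl1 and Loxl2 at 11, and the 3 pairs with Loxl3 at 8 each.

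Some of the hydroxylase genes carry alternative coding exons, and some of the transcripts in the deposited table differ by them. Plod2 has a 63-base exon (chr9:92601985-92602047, plus strand) that its longer product includes and its shorter product skips. P4ha1 has a pair of 71-base exons (chr10:59354340-59354410 and chr10:59355350-59355420, plus strand), of which a transcript uses one. P4ha2 has a 60-base exon (chr11:54126238-54126297) and a 66-base alternative (chr11:54126346-54126411, both plus strand). They are printed because the shares of transcripts by exon turn on them, with the exon in capitals and 12 flanking transcript bases on each side in lower case.
Plod2 exon: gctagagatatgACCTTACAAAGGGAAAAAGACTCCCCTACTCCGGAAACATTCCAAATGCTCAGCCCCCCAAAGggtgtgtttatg
P4ha1 first exon of the pair: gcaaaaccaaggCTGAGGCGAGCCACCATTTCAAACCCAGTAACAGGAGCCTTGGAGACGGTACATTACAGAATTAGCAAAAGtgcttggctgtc
P4ha1 second exon of the pair: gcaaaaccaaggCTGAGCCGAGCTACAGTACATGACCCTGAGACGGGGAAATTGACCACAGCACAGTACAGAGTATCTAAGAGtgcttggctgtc
P4ha2 60-base exon: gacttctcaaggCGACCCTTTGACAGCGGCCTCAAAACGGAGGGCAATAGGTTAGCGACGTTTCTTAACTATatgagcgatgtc
P4ha2 66-base exon: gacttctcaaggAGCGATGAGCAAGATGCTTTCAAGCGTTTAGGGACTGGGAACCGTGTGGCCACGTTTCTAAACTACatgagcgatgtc
The P4ha1 exons have the same flanks and the same length and differ at 29 of 71 bases.

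The main question was how BMP4-treated and untreated cells differ in Lox, its paralogs and the hydroxylases. The 10 genes did not move together. Lox, P4ha3 and, by a smaller amount, Loxl3 were higher with BMP4, while Loxl2, P4ha1, Plod1 and Plod2 were lower. Loxl1, Loxl4 and P4ha2 did not pass the threshold. By limma's moderated test on log2(FPKM + 1), with Benjamini-Hochberg adjustment over 10932 tested genes and a threshold of 0.05, 7 of the 10 genes changed, where 27.9% of all tested genes did. Of these, 3 were higher, beside 13.6% of all genes, and 4 were lower, beside 14.3%. The groups did not overlap for 8 of the 10, beside 45.5% of all tested genes. The median log2 fold change of the 10 was -0.12, against -0.00134 over all tested genes. The genes were chosen with earlier results of these data known, so nothing is read from these shares. In bulk RNA, fewer cells of a type and less RNA per cell cannot be told apart.

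**Figure D1:**
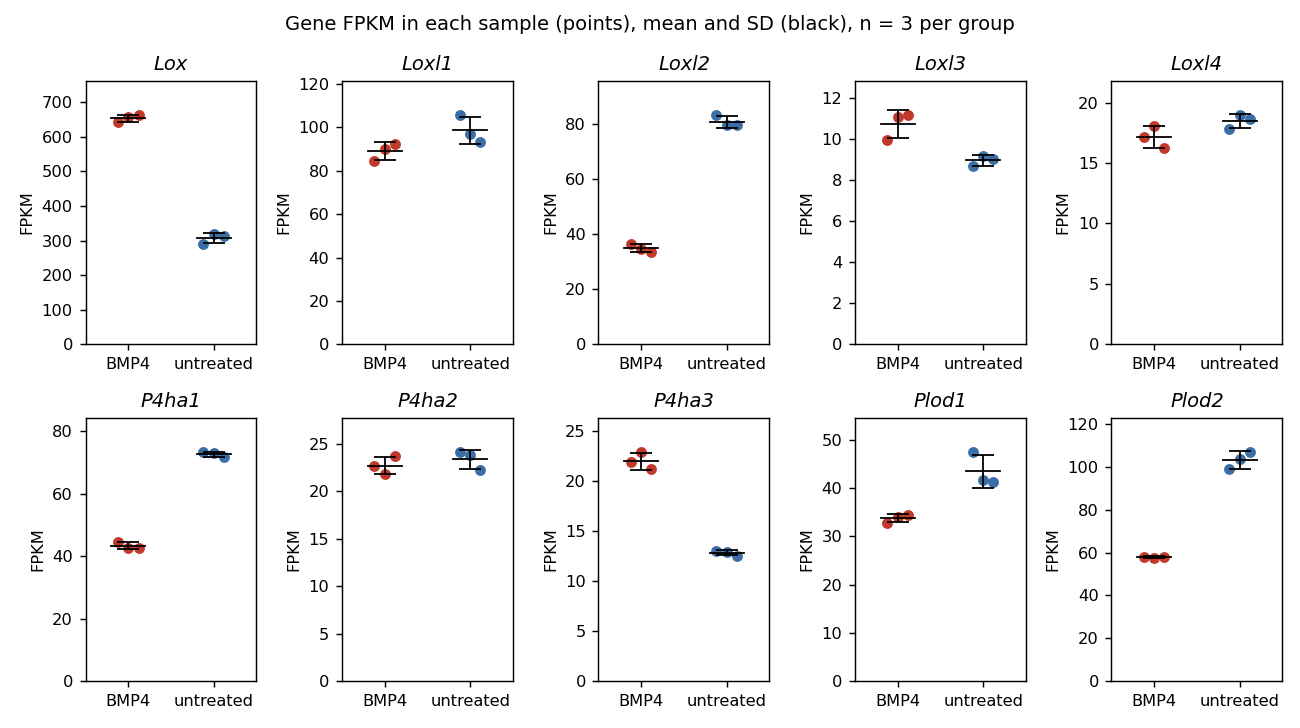
Gene FPKM of each lysyl oxidase and hydroxylase in the 3 BMP4 samples (left, red) and the 3 untreated samples (right, blue), with the mean and SD in black; each vertical axis starts at 0 and has its own range. The BMP4 points lie apart from the untreated points in 8 genes and overlap with them in Loxl4 and P4ha2.

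Lox (ENSMUSG00000024529.13, chromosome 18, 52516069 to 52529867, minus strand, GRCm38) encodes the founding member of the family, which crosslinks fibrillar collagen and elastin. It stood at 642, 657 and 662 FPKM in the BMP4 samples, against 291, 319.9 and 312 FPKM in the untreated samples. All BMP4 samples were above all untreated samples, and the gap between the groups was far wider than the spread within either. The mean was 654 ± 10.2 FPKM with BMP4 and 308 ± 14.8 FPKM untreated (SD, n = 3 each), a 2.12-fold higher level. It changed by 1.09 on the log2 scale (SE 0.05, 95% interval 0.96 to 1.21, limma adjusted p = 1.37e-05). By mean level Lox ranked 21 of the 11754 genes with BMP4 and 82 untreated. A log2 fold change of at least 1 in size and an adjusted p under 0.05 were reached by Lox and Loxl2 among the 10, and by 2.88% of all tested genes.

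Loxl2 (ENSMUSG00000034205.16, chromosome 14, 69609068 to 69695834, plus strand) encodes a lysyl oxidase with scavenger receptor cysteine-rich domains that is known to crosslink type IV collagen of basement membranes. Its level was 36.3, 34.6 and 33.4 FPKM with BMP4, against 83.0, 79.5 and 79.4 FPKM in untreated cells. Every BMP4 sample lay below every untreated sample. The means of 34.8 ± 1.44 FPKM with BMP4 and 80.7 ± 2.07 FPKM untreated make a level 2.32-fold lower with BMP4 and a log2 fold change of -1.19 (standard error 0.05, limma adjusted p = 5.21e-06). Lox and Loxl2 thus changed in opposite directions by amounts of similar size on the log2 scale.

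Loxl3, whose product shares the scavenger receptor domains and is required for palate and spine formation in mice, had the lowest level of the 10 in either group. It lies on chromosome 6 (83034173 to 83052562, plus strand) and measured 9.94, 11.1 and 11.1 FPKM with BMP4, against 8.67, 9.19 and 9.04 FPKM untreated. The groups did not overlap, but the lowest BMP4 sample was close to the highest untreated one. Its log2 fold change was 0.23 (standard error 0.06, limma adjusted p = 0.0316). The call was lost in 7 of 15 settings: the adjusted p was 0.0697 with a replicate block, 0.0694 from summed transcripts, 0.112 and 0.0931 without BMP4 replicates 2 and 3, and 0.0691, 0.0669 and 0.0619 without untreated replicates 1, 2 and 3. In GENCODE M21, exons of Loxl3 overlap exons of the protein-coding gene Htra2 on the opposite strand. Exons of Lox, Loxl2 and Plod2 overlap those of the noncoding or unclassified genes AC161119.1, Gm27177 and Gm38391 on the opposite strand, and Loxl2 overlaps Mir6950 on its own strand. The library kit keeps strand, but no source used here states the strand setting of the quantification.

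Loxl1 (chromosome 9, 58287723 to 58313212, minus strand), known for its role in elastic fibre upkeep, had 84.5, 90.0 and 92.5 FPKM with BMP4, against 106, 97.1 and 93.2 FPKM untreated. The highest BMP4 sample almost met the lowest untreated sample. Its log2 fold change of -0.15 (95% interval -0.29 to -0.0018) did not pass after adjustment (limma adjusted p = 0.121). Loxl4, another paralog with scavenger receptor domains (chromosome 19, 42593982 to 42612813, minus strand), had 17.1, 18.1 and 16.3 FPKM with BMP4 and 17.8, 19.0 and 18.6 FPKM untreated. These groups overlapped, and the interval of its log2 fold change of -0.10 ran from -0.23 to 0.03 (limma adjusted p = 0.221).

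Among the prolyl 4-hydroxylase alpha subunits, P4ha1 and P4ha3 changed in opposite directions. P4ha1 (ENSMUSG00000019916.14, chromosome 10, 59323296 to 59373304, plus strand) encodes the main catalytic subunit of most cell types. It had 44.6, 42.6 and 42.7 FPKM with BMP4, against 73.4, 73.0 and 71.7 FPKM untreated. The groups were far apart and each was tight. Its mean was 1.68-fold lower with BMP4, with a log2 fold change of -0.73 (standard error 0.04, limma adjusted p = 2.36e-05). P4ha3 (ENSMUSG00000051048.17, chromosome 7, 100285520 to 100319699, plus strand) encodes another catalytic subunit, usually the least abundant. It had 21.8, 22.9 and 21.2 FPKM with BMP4, against 13.0, 12.9 and 12.5 FPKM untreated. Every BMP4 sample was above every untreated one, and the mean was 1.71-fold higher. The log2 fold change was 0.73 (SE 0.05, limma adjusted p = 6.05e-05). By transcript, the rise lay in P4ha3-004, at 20.5 ± 2.90 FPKM with BMP4 and 11.6 ± 2.17 FPKM untreated. That transcript is annotated to start downstream, at 100293810. The transcript that starts at 100285520, P4ha3-001, had 4.59 ± 4.88 FPKM with BMP4 and 4.57 ± 2.61 FPKM untreated. It did not pass, so the gene value does not show a rise of P4ha3-001. P4ha2 (chromosome 11, 54100095 to 54131665, plus strand), which encodes the remaining catalytic subunit, had 22.6, 21.8 and 23.7 FPKM with BMP4 and 24.1, 23.8 and 22.2 FPKM untreated. Those groups overlapped, and its log2 fold change was -0.04 (95% interval -0.17 to 0.09, limma adjusted p = 0.613).

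Both lysyl hydroxylases fell. Plod2 (ENSMUSG00000032374.14, chromosome 9, 92542223 to 92608428, plus strand) encodes the enzyme that hydroxylates lysines in the telopeptides, the non-helical ends of collagen where crosslinks form. It had 58.1, 57.4 and 58.1 FPKM with BMP4, against 98.9, 104 and 107 FPKM untreated. No BMP4 sample came near the untreated range, and the spread was smaller with BMP4 (SD 0.424 FPKM) than untreated (SD 4.11 FPKM). The mean was 1.78-fold lower with BMP4, with a log2 fold change of -0.82 (standard error 0.04, limma adjusted p = 2.18e-05). Plod1 (ENSMUSG00000019055.15, chromosome 4, 147909753 to 147936767, minus strand) hydroxylates lysines within the helix. It had 32.8, 34.0 and 34.5 FPKM with BMP4, against 47.5, 41.6 and 41.3 FPKM untreated. The groups did not overlap, and untreated replicate 1 was the highest of its group. The mean was 1.29-fold lower with BMP4, with a log2 fold change of -0.35 (standard error 0.06, limma adjusted p = 0.00626).

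**Figure D2:**
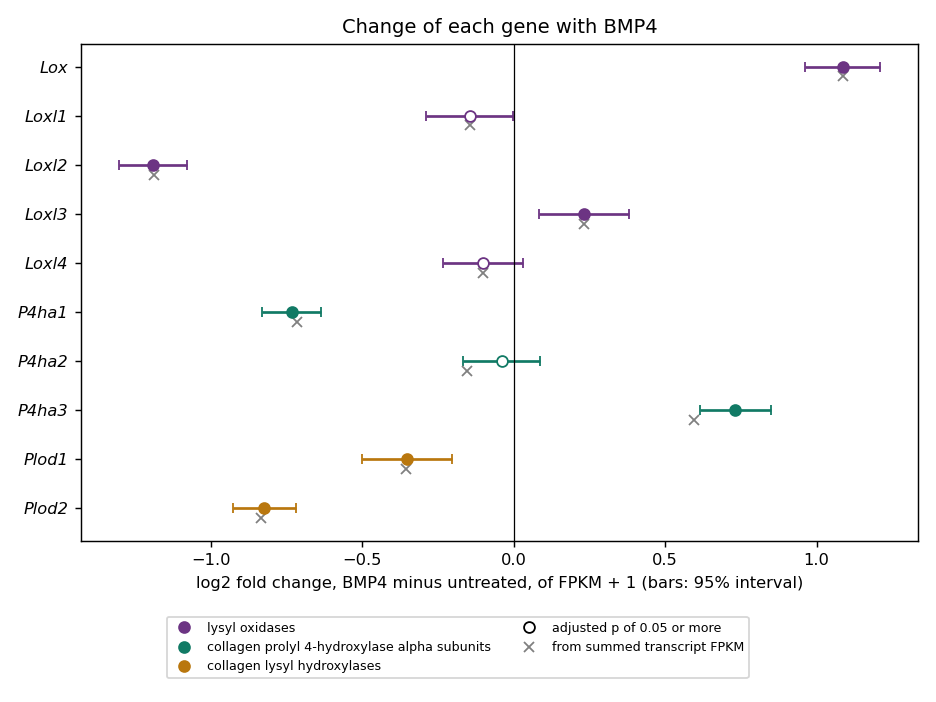
Log2 fold change of FPKM + 1, BMP4 minus untreated, for each gene, with bars for the 95% interval and crosses for the value from summed transcript FPKM; filled points passed an adjusted p of 0.05. Lox at 1.09 and Loxl2 at -1.19 lie at opposite ends, and P4ha3 at 0.73 lies opposite to P4ha1 at -0.73.

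Whether Lox responded differently from each other gene was tested on the difference of their log2(FPKM + 1) values within each sample. Lox minus Loxl2 was 4.20 ± 0.08 with BMP4 and 1.92 ± 0.10 untreated (log2 units, SD, n = 3 each), a difference of 2.28 that was the largest of the 9 pairs. The smallest was Lox against P4ha3, at 4.83 ± 0.06 with BMP4 and 4.48 ± 0.09 untreated, a difference of 0.35. The values for the other pairs were 0.85 with Loxl3, 1.13 with P4ha2, 1.19 with Loxl4, 1.23 with Loxl1, 1.44 with Plod1, 1.82 with P4ha1 and 1.91 with Plod2. In all 9 pairs every BMP4 sample lay above every untreated sample. The exact two-sided permutation p was 0.1 for each, the smallest that 3 against 3 samples allow, and 0.1 after Benjamini-Hochberg adjustment over the 9 pairs, so none could pass 0.05.

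The make-up of each family differed between the groups. Lox made up 81.2 ± 0.133% of the summed lysyl oxidase FPKM with BMP4 and 59.8 ± 1.97% untreated. Loxl2 made up 4.32 ± 0.251% with BMP4 and 15.7 ± 0.640% untreated, and Loxl1 made up 10.7% to 11.3% with BMP4 and 18.2% to 20.8% untreated. The summed level of the 5 lysyl oxidases was 805 ± 13.4 FPKM with BMP4 and 514 ± 9.30 FPKM untreated. In the family that does the prolyl hydroxylation the sum was instead lower with BMP4, at 88.0 ± 0.927 FPKM, against 109 ± 2.15 FPKM untreated. P4ha1 held 49.2 ± 0.732% of it with BMP4 and 66.8 ± 0.524% untreated, and P4ha3 held 25.0 ± 1.07% with BMP4 and 11.8 ± 0.0136% untreated. Plod1 and Plod2 together had 91.7 ± 0.873 FPKM with BMP4 and 147 ± 1.43 FPKM untreated, with Plod2 at 63.2 ± 0.657% of it with BMP4 and 70.4 ± 2.47% untreated. Each of these shares and sums had groups that did not overlap; they are descriptions and were not tested. Their size depends on the source of the level. From summed transcript FPKM, Plod1 and Plod2 together had 155 ± 1.55 FPKM with BMP4 and 242 ± 2.71 FPKM untreated, with Plod2 at 53.8 ± 0.656% of it with BMP4 and 61.9 ± 2.78% untreated. On that scale P4ha1 held 40.8 ± 2.58% of its family with BMP4 and 54.7 ± 1.67% untreated, P4ha3 held 21.5 ± 2.38% with BMP4 and 11.3 ± 0.753% untreated, and Lox held 84.3 ± 0.102% of its family with BMP4 and 64.9 ± 1.98% untreated. These groups did not overlap either.

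**Figure D3:**
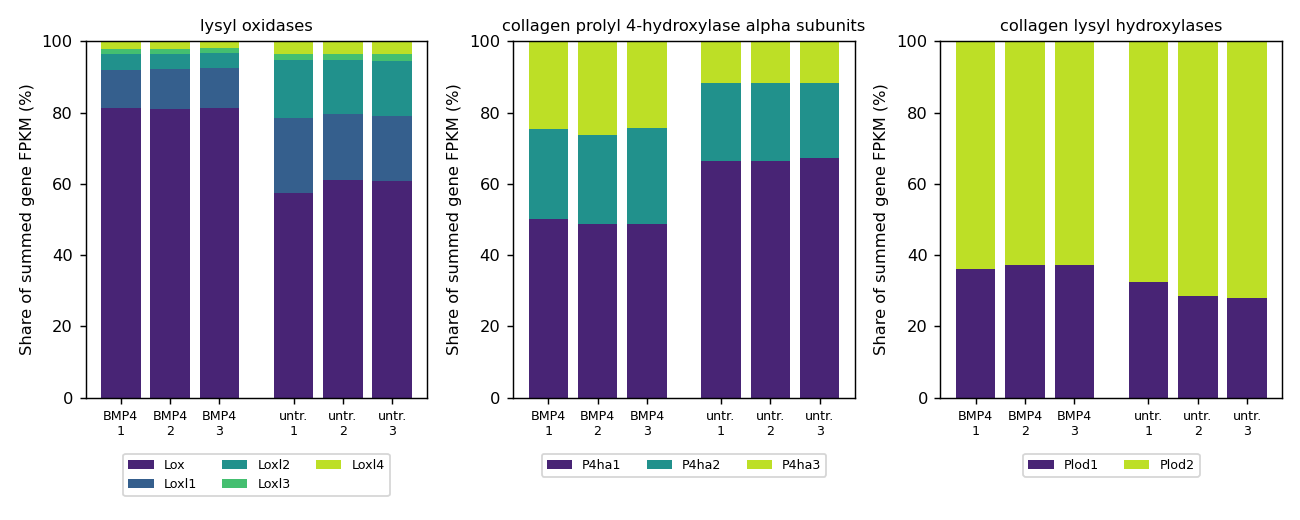
Share of summed gene FPKM (percent, stacked) that each gene holds within its family, for each BMP4 sample (left 3 bars) and each untreated sample (right 3 bars). Lox takes 81.2% on average with BMP4 and 59.8% untreated, and P4ha3 takes 25.0% with BMP4 and 11.8% untreated.

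By mean gene FPKM the order with BMP4 was Lox, Loxl1, Plod2, P4ha1, Loxl2, Plod1, P4ha2, P4ha3, Loxl4 and Loxl3. The sample ranges of Loxl2 and Plod1, and those of P4ha2 and P4ha3, overlapped, so their order is not resolved. In untreated cells the order was Lox, Plod2, Loxl1, Loxl2, P4ha1, Plod1, P4ha2, Loxl4, P4ha3 and Loxl3, with overlapping ranges for Plod2 and Loxl1. The order depends on the source of the level. Summed transcript FPKM exceeded the gene FPKM 2.12-fold for Plod1, 2.01-fold for P4ha2, 1.45-fold for Plod2 and 1.27-fold for Lox. On the summed scale with BMP4, Plod1 (71.5 FPKM) stood above P4ha1 (47.4 FPKM) and P4ha2 (43.8 FPKM) above Loxl2 (35.6 FPKM). Lox was first and Loxl3 last on either scale in BMP4 cells.

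The substrates of these enzymes moved apart from Lox. The FPKM ratio of Lox to Col1a1, the main chain of type I collagen, was 0.933, 0.922 and 0.983 with BMP4, against 0.275, 0.296 and 0.301 untreated. The ratio of Lox to Col3a1, the type III collagen chain, was 3.21, 3.40 and 3.36 with BMP4, against 0.393, 0.430 and 0.415 untreated. Lox was thus higher relative to either collagen in every BMP4 sample. P4ha1, Plod2 and Col1a1 all fell, and the P4ha1 ratio to Col1a1 was 0.0627 ± 0.00253 with BMP4 and 0.0687 ± 0.000917 untreated, and the Plod2 ratio was 0.0838 ± 0.00288 with BMP4 and 0.0976 ± 0.00515 untreated. Relative to Col3a1, which fell more, P4ha1 was higher with BMP4, at 0.220 ± 0.00304 with BMP4 and 0.0975 ± 0.00180 untreated. Ratios share their denominators and were not tested.

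The transcript table separated 23 transcripts of the 10 genes, and 18 had a mean of at least 1 FPKM and were tested. By limma over 17213 transcripts, 7 of the 18 changed, where 8.55% of all tested transcripts did. The 3 that were higher, beside 4.03% of all transcripts, were Lox-201, Lox-202 and P4ha3-004. The 4 that were lower, beside 4.53%, were Loxl2-001, P4ha1-001, Plod1-001 and Plod2-002. The 11 others did not pass. P4ha3-004 (log2 fold change 0.78, limma adjusted p = 0.0434) lost its call with a replicate block, where the adjusted p was 0.151, without the variance trend and without the filter (0.0618 and 0.0502), and without any 1 replicate other than untreated 1 (0.0732 to 0.143). Plod1-001 (log2 fold change -0.36, limma adjusted p = 0.0293) lost its call with a replicate block (0.158), without the trend (0.0749) and without any 1 replicate other than untreated 1 (0.0548 to 0.113).

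Lox-201 had 659, 687 and 659.6 FPKM with BMP4, against 282, 329.9 and 325 FPKM untreated, and Lox-202 had 159, 153 and 181 FPKM with BMP4, against 85.8, 78.3 and 74.0 FPKM untreated. Both forms rose, with log2 fold changes of 1.10 and 1.04 (limma adjusted p = 9.52e-04 and 0.00203). The share of Lox-201 in the transcripts of the gene was 80.3 ± 1.65% with BMP4 and 79.7 ± 2.57% untreated, and the balance of Lox-201 against Lox-202 differed by 0.06 on the log2 scale (95% interval -0.30 to 0.42). Over the 5 genes with more than 1 tested transcript, 13 balances were tested and limma called 0 of them, with 0 at an unadjusted p under 0.05, while 0.229% of all 10483 tested balances passed (0.124% higher and 0.105% lower). The balances of Lox-201 and Lox-202 are the same test with the sign reversed, as are those of P4ha3-001 and P4ha3-004. The 13 are therefore not all separate results. A p that misses the threshold does not show that the balance was equal.

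Plod2 transcripts with the 63-base exon made up 99.5 ± 0.0893% of its FPKM with BMP4 and 99.6 ± 0.112% untreated, so the fall of Plod2 was in the long form. For P4ha1 the share of transcripts with the first exon of the pair was 74.1%, 75.7% and 79.9% with BMP4 and 81.0%, 79.4% and 81.3% untreated. These groups overlapped through BMP4 replicate 3. For P4ha2, among the 3 transcripts that reach the exon pair (P4ha2-001, P4ha2-002 and P4ha2-016), the share with the 60-base exon was 19.9 ± 2.90% with BMP4 and 22.3 ± 3.41% untreated. P4ha2-016 was listed at 0 in untreated replicate 1, where P4ha2-001, which shares that exon, was listed at 9.83 FPKM, so single transcripts of P4ha2 are uncertain. The P4ha3 transcript with its 63-base exon, P4ha3-001, varied widely between replicates, with 0.447, 9.97 and 3.36 FPKM with BMP4 and 1.69, 5.27 and 6.76 FPKM untreated. It was compared with P4ha3-004, which also starts downstream of it, so their share does not describe that exon alone. The untested minor transcript Plod1-005 had 0.703 ± 0.0501 FPKM with BMP4 and 0.111 ± 0.0455 FPKM untreated, with no overlap, below the filter.

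**Figure D4:**
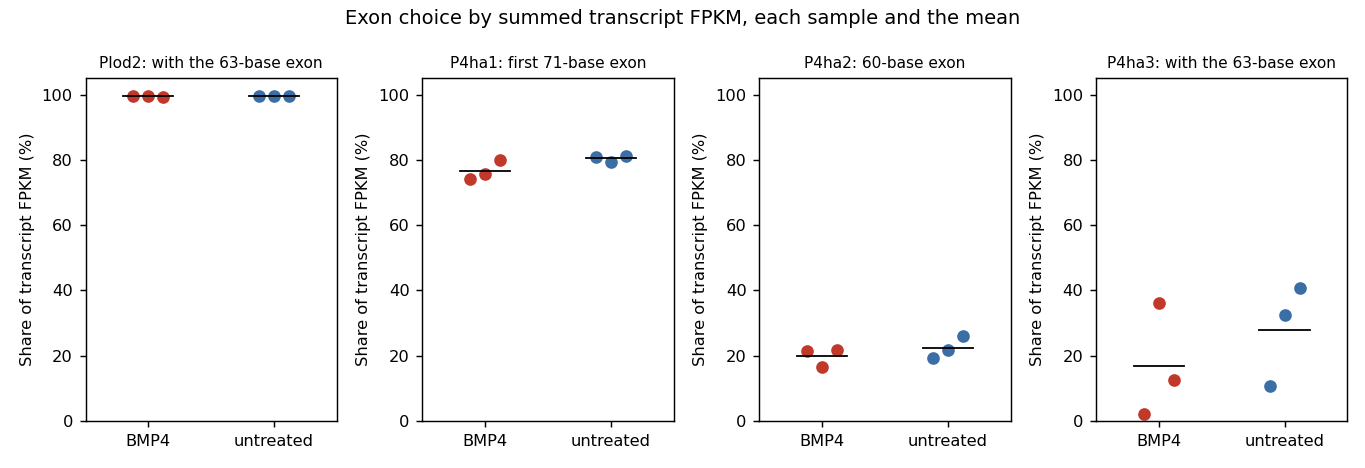
Share (percent) of transcripts with the named coding exon in the summed FPKM of the transcripts compared for that exon, which for P4ha2 are P4ha2-001, P4ha2-002 and P4ha2-016, for each BMP4 sample (left, red) and untreated sample (right, blue), with the mean as a line. Plod2 averages 99.5% with BMP4 and 99.6% untreated, and P4ha3 ranges from 2.12% to 36.2% with BMP4 and from 10.8% to 40.9% untreated. For P4ha3 the transcripts compared, P4ha3-001 and P4ha3-004, also differ in their start, so the share does not describe the exon alone.

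Promoter windows (250 bases before to 50 after the gene start, RefSeq, GRCm38.p6) matched 5 of the 10 genes by symbol: Plod1, P4ha1, P4ha2, P4ha3 and Loxl4. Those of P4ha1 and P4ha3 are printed because these paralogs changed in opposite directions. The windows are chr10:59323046-59323345 and chr7:100285270-100285569, both on the plus strand, and capitals mark the letters searched for. The P4ha3 window lies at the start of P4ha3-001 (100285520), which did not pass the transcript test. The form that passed, P4ha3-004, is annotated to start downstream at 100293810, outside the window.
P4ha1 promoter: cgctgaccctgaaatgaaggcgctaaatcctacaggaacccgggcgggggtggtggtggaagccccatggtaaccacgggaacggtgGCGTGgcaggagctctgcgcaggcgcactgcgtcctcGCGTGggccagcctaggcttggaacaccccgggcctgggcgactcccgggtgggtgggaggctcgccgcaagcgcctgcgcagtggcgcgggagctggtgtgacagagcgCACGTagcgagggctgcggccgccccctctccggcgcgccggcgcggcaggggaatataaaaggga
P4ha3 promoter: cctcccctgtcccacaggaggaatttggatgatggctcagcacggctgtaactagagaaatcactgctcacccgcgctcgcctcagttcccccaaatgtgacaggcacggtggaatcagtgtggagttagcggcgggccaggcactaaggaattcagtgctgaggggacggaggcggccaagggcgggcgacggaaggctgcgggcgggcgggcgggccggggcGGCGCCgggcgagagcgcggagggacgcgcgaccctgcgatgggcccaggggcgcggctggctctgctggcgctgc
Cores of the hypoxia response element were searched in the form with A, spelled ACGTG, and in the form with G. The G form is spelled GCGTG. Motifs that SMAD proteins are known to bind were a palindrome, spelled GGCGCC, and the short SMAD element. That element is spelled CAGAC. All were searched on both strands, none contains another, and the palindrome is its own reverse complement. Of 32851 promoter windows of the same length, the A core is held by 19.6%, the G core by 32.4%, the palindrome by 11.9% and the short SMAD element by 49.6%. P4ha1 had 1 A core and 2 G cores, and P4ha3 had 1 palindrome. P4ha2 had 2 A cores, 2 G cores and 1 palindrome. Plod1 had 2 G cores and 1 short SMAD element, and Loxl4 had 1 each of the G core, the palindrome and the short SMAD element. A match describes the letters in the window and nothing more.

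Genes that work with these enzymes were read from lists, and each count is to be read beside the 27.9% of all tested genes that changed, 13.6% higher and 14.3% lower. Of 18 tested genes for other collagen-modifying and folding factors, 1 was higher and 4 were lower with BMP4, a share close to that of all genes, with a median log2 fold change of -0.17. The one that rose was P3h2, a prolyl 3-hydroxylase, at 5.41 ± 0.399 FPKM with BMP4 and 2.15 ± 0.362 FPKM untreated (log2 fold change 1.03). The fallers were Creb3l1, a transcription factor of the secretory pathway (-0.59), P4hb, the protein disulfide isomerase that serves as beta subunit of the prolyl 4-hydroxylases (400.0 ± 6.27 FPKM with BMP4 and 497 ± 18.0 FPKM untreated, -0.31), Plod3 (39.7 ± 1.77 FPKM with BMP4 and 48.4 ± 2.55 FPKM untreated, -0.28) and Fkbp9 (-0.21). With a replicate block Fkbp9 lost its call (adjusted p = 0.0552). With equal sums, and without the variance trend, 2 genes of this list were higher, and with trimmed-mean scaling 7 were lower. With a filter at 5 FPKM, which P3h2 does not reach, 0 genes of the list were higher and 4 were lower. All 3 Plod genes were therefore lower with BMP4, while the 3 alpha subunits did not share a direction.

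Of 9 tested genes for procollagen and pro-lysyl-oxidase processing, 2 were higher and 5 lower, with a median of -0.31. Pcolce2, an enhancer of procollagen C-proteinase, rose to 26.7 ± 0.897 FPKM with BMP4, against 4.45 ± 0.541 FPKM untreated (log2 fold change 2.35). The related gene Pcolce had a higher level in both groups and fell. It had 103 ± 5.09 FPKM with BMP4, against 144 ± 17.7 FPKM untreated (-0.47, limma adjusted p = 0.00738). Fn1, the fibronectin gene, rose by 0.74. Bmp1, the proteinase that cleaves the propeptide of Lox, fell to 57.7 ± 1.78 FPKM with BMP4, against 80.7 ± 3.03 FPKM untreated (-0.48), and Adamts2, the procollagen N-proteinase, fell by 0.40 on the log2 scale. Lox and the protease that activates its product thus moved in opposite directions.

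Among fibrillar collagens and elastin 1 of 8 tested genes was higher and 7 were lower, with a median of -0.53. Col3a1 fell by 1.92, Col1a1 by 0.61 and Col1a2 by 0.41 on the log2 scale, and Eln, which encodes elastin, by 0.57. The gene that rose, Col5a2, was singled out after its values were seen, and its rise was lost (0 genes higher) with a replicate block, without the variance trend, and without BMP4 replicate 1 or 2 or untreated replicate 1 or 2. All 4 tested type IV collagen genes were lower, with a median of -0.56: Col4a1 at -0.75, Col4a2 at -0.68, Col4a5 at -0.43 and Col4a6 at -0.36. From summed transcripts Col4a1 had -0.67 with an adjusted p of 0.488.

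Of 10 tested genes for supply of copper, ascorbate and iron, 1 was higher and 1 lower, with a median of -0.07. Tfrc, the transferrin receptor, fell by 0.84 on the log2 scale. Slc39a14, a metal transporter, had 0.23, a call lost with a replicate block (adjusted p = 0.0907) and without any 1 replicate other than BMP4 3 (0.0531 to 0.126). The copper transporter gene Slc31a2 did not pass with all samples (-0.28, limma adjusted p = 0.117), and passed only without BMP4 replicate 3 (-0.38, adjusted p = 0.0449). Ccs, a copper chaperone, did not pass with all samples (-0.22, limma adjusted p = 0.0859), and passed only without untreated replicate 3 (-0.29, adjusted p = 0.0339). Slc31a1, Atp7a and Atox1 of the same list did not pass (-0.02, 0.18 and -0.10, limma adjusted p = 0.826, 0.479 and 0.315). Of 7 tested 2-oxoglutarate oxygen sensors and hydroxylases outside collagen, 1 was higher and 2 were lower, with a median of 0.03. Egln3, a HIF prolyl hydroxylase, rose by 0.69, and its relative Egln1 and the aspartyl hydroxylase Asph fell by 0.30 each on the log2 scale. Egln2, another HIF prolyl hydroxylase, had 0.03 (limma adjusted p = 0.680). With a filter at 5 FPKM, which Egln3 does not reach, 0 genes of this list were higher.

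Among 18 tested hypoxia-inducible genes outside the enzymes described, 2 were higher and 5 lower, with a median of -0.03. The list holds Hif1a and Epas1, genes of HIF subunits themselves, and Hif1a is 1 of the 5 that were lower. Adm, the gene of the vasodilator adrenomedullin, fell by 1.69 and Ndrg1 by 0.35 on the log2 scale, while Mxi1, a MAX-binding repressor, rose by 0.61. Hif1a, which encodes the oxygen-regulated subunit of HIF-1, fell to 37.2 ± 1.42 FPKM with BMP4, against 56.6 ± 2.56 FPKM untreated (log2 fold change -0.59, limma adjusted p = 2.20e-04). P4ha1 and Plod2, which are known HIF-1 targets, were lower with BMP4, while Lox, another known target, was higher. Which of the other enzymes are HIF-1 targets was not assessed, and they did not share a direction. Loxl2 and Plod1 were lower, Loxl3 and P4ha3 were higher, and P4ha2, Loxl1 and Loxl4 did not pass. Whether HIF-1 had a part in any of these changes was not tested. Most of the hypoxia-inducible list, 11 of 18, did not pass. The other gene that rose, Bnip3, a mitophagy receptor (0.16, limma adjusted p = 0.0478), was named after its values were seen. The count higher was 1 without the variance trend, from summed transcripts, and without any of BMP4 replicates 1, 2 or 3 or untreated replicate 2.

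**Figure D5:**
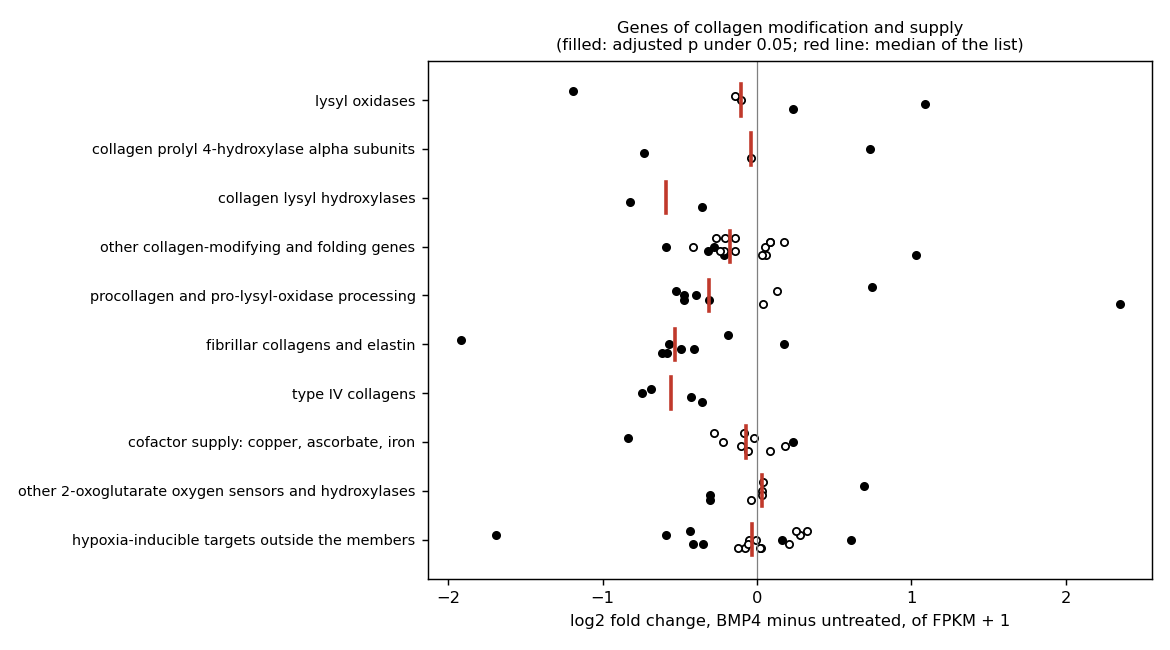
Log2 fold change of FPKM + 1, BMP4 minus untreated, of each tested gene by list; filled points passed an adjusted p of 0.05 and the red line is the median of the list. All 4 type IV collagen genes lie below 0, and the lysyl oxidases spread from -1.19 to 1.09.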

How the data were processed

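RNA of 6 samples, 3 with BMP4 and 3 untreated, was measured by strand-specific, paired-end sequencing of polyadenylated RNA, per the labels' protocols. FastQC, cutadapt, HISAT2 and StringTie were used with build GRCm38, per the submitters' processing notes; no version, setting or annotation is given in the sources used here. The authors deposited FPKM per gene and per transcript, per the file headers. Depth is unknown, so no counting interval is given. The higher group mean was at least 0.502 FPKM in every listed gene. The gene and transcript files each had 1 emptied line, which was skipped.

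From the deposited FPKM, log2(FPKM + 1) was computed, a scale on which fold changes of low genes are understated. Genes and transcripts averaging at least 1 FPKM were tested with limma 3.58.1 in R 4.3.3 (two-sided moderated test, variance trend, Benjamini-Hochberg adjustment, threshold 0.05). This left 10932 genes, and 822 lay below. A transcript's balance is its log2 value minus that of the summed other transcripts of its gene. Differences of response used exact permutation tests in SciPy 1.17.1. Trimmed-mean factors were unweighted trimmed means of log ratios of FPKM. The limma tests were checked on simulated data, and no figures from that check are given here. Alternatives were another pseudocount (0.1), a filter at 5 FPKM or none, 2 rescalings, no variance trend, a replicate block and leaving out each replicate; summed transcript FPKM, and the alternatives for the related gene lists, were added after seeing the data. Equal sums moved the median log2 fold change of all genes by 0.04.

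The genes and lists were chosen with earlier results of these data known. Named were all 10 enzymes, their tested transcripts and up to 4 tested genes per list by adjusted p. Plod3, P4hb, Bmp1, Col1a1, Col1a2, Col3a1, Eln and Hif1a were named as well. Plod1-005, Col5a2, Bnip3, Pcolce, Slc31a1, Atp7a, Atox1, the fibroblast markers and the shares by exon were picked after their values were seen. Exon and coding sequences came from GENCODE M21 transcripts, in which 21 of 23 deposited transcript identifiers had the same version. Protein sequences were not used here.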

Additional observations from a re-analysis of the deposited data

How the results depend on the processing

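Lox, Loxl2, P4ha1, P4ha3, Plod1 and Plod2 kept their direction and passed in all 15 settings; Loxl3 passed in 8. Of the 10 enzymes, 3 were higher in 8 settings and 2 in the other 7, and 4 were lower in all 15. The log2 fold change of P4ha3 ranged from 0.60, from summed transcripts, to 0.77. These are calls on genes, and the call of the transcript P4ha3-004 was less stable, as given above.

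The deviations of same-numbered samples from their group means had r = -0.15, 0.05 and -0.22 across genes. Other combinations had r from -0.10 to 0.22. Deviations from a mean of 3 samples depend on one another, so these values cannot decide whether the numbers pair the samples. With a replicate block 994 genes were higher and 1046 lower, 168 transcripts higher and 173 lower, against 693 and 779 without it, and 1 balance higher and 1 lower, against 13 and 11. With a pseudocount of 0.1, 7 balances were higher and 5 lower; with a mean of at least 5 FPKM, 3 and 4; with no filter 17 were lower. The enzymes' own balances had 0 calls in every setting. The cause of these shifts was not tested.

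Leaving out each replicate in turn gave 985 to 1419 genes higher (985 without BMP4 replicate 1) and 1051 to 1444 lower, 339 to 543 transcripts higher and 400 to 536 lower, and 7 to 16 balances higher and 7 to 20 lower. Uncalled values changed sign when a replicate was left out: balances of Lox-201 (-0.068 to 0.14), Lox-202 (-0.14 to 0.068), P4ha2-002 (-0.093 to 0.20) and P4ha2-016 (-0.44 to 1.62), transcripts P4ha1-003 (-0.34 to 0.17), P4ha2-006 (-0.012 to 0.35), P4ha2-016 (-0.43 to 1.29) and P4ha3-001 (-1.02 to 0.45), Egln2 (-0.0060 to 0.071) and Eng (-0.062 to 0.045). Eng also turned to 0.036 with equal sums. The Lox-202 balance is that of Lox-201 with the sign reversed. With 3 samples per group and unknown depth, small changes such as those of Loxl1 and Loxl4 are not resolved.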
